A study of Rattus norvegicus with 64 samples.

Results

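The genes described here are 9 genes tied to Alzheimer disease by risk or pathology, App, Mapt, Psen2, Bace1, Apoe, Clu, Sorl1, Bin1, and Picalm, measured in the entorhinal cortex of young Long Evans rats. They were taken by name from the 17260 genes of the count files, all 9 had a row, and all 9 were among the 12521 genes that passed the filter on low counts. Total RNA depleted of ribosomal RNA was sequenced from layer II (LII) and from the deeper layers III–VI (LDeep) of the medial (MEC) and lateral (LEC) entorhinal cortex. There were 64 libraries in 16 groups: each layer of each region was sampled 5 times on postnatal day 2 (P2), 4 times on P9, 3 times on P23, and 4 times on P45. The labels name no treatment or transgene in any group, so no group is a model of the disease, and P45 is the oldest age. The tissue was cut by hand from slices and includes all cell types of the layer. Fewer cells of a type and less RNA per cell cannot be told apart in such samples. The study calls them biological replicates, but the labels do not say which libraries came from the same animal. The main tests count the 64 libraries as independent. If libraries share an animal, the p-values for age are too small.

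In Alzheimer disease neurons of entorhinal layer II are lost early, which is why these genes are of interest in this tissue. App encodes the amyloid precursor protein. Its cleavage by BACE1 (the beta-secretase) and then by gamma-secretase, whose catalytic subunit is a presenilin such as that encoded by Psen2, releases amyloid-beta peptide. Mapt encodes tau, a microtubule-associated protein of axons that aggregates in tangles. Apoe and Clu encode the secreted proteins apolipoprotein E and clusterin, which are made in large part by astrocytes in the healthy brain. Sorl1 encodes a sorting receptor that directs APP within endosomes, Bin1 a membrane-bending protein with neuronal and oligodendrocyte forms, and Picalm a clathrin assembly protein of endocytosis.

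Between 3894334 and 11439143 read pairs per library were counted on genes (median 7569157.5). The 9 genes were well counted, with Psen2 lowest at 81 to 323 counts per library and Apoe highest at up to 42513. Markers of layer II neurons such as Reln were higher in LII, and markers of deep-layer neurons such as Fezf2 were higher in LDeep, but 3 MEC libraries of P2 stood apart. LII replicates 1 and 3 held 32.1 and 50.6 CPM (gene counts scaled to library size) of 12 summed meningeal fibroblast markers against 816 to 1520 in the other 3 LII libraries. LDeep replicate 1 held 1210 CPM against 56.9 to 93.8 in the other 4 LDeep libraries, and its Fezf2 was 4.61 on the log2 CPM scale against 6.02 to 6.41. The Reln level of LDeep replicate 1 was 9.49, above the 7.66 to 8.39 of the other LDeep libraries and above LII replicate 1 at 9.33. Fezf2 was 5.16 in LII replicate 3, against 1.55 to 3.37 in the other LII libraries, and Zic1, a transcription factor gene, was 8.76 in LII replicate 1, against 1.5 to 4.63. Marker levels of these 3 libraries thus go in part against their layer labels, and LII and LDeep are the labelled layers throughout. Neuron markers also spread widely in LII of P2 over both regions. Summed excitatory markers were 153 to 1390 CPM (median 950) and inhibitory ones 214 to 1350 CPM (median 355). In LDeep of P2 they were 856 to 1260 and 177 to 559 CPM. Most layer values that use P2 are followed by the values without the 3 MEC libraries named above, and each call on the 9 genes that changed without them is named. At P9 all 4 libraries with replicate number 4 had more of the immature neuron markers than the other libraries of their group, at 8600 to 11500 against 6210 to 9050 CPM.

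Compared per kilobase of exon (FPKM, that is CPM divided by the exon length in kilobases), the order of the 9 genes changed from each age to the next until P23. At P2 Mapt was highest, with a median of 591 FPKM over 20 libraries, followed by Apoe at 459 and App at 344. Mapt exceeded Apoe in 17 of 20 libraries, and Apoe exceeded App in 17 of 20, so these neighbors were not separated in every library. Picalm at 112, Clu at 68.8, Bin1 at 68.1, Bace1 at 43.4, Psen2 at 14.3, and Sorl1 at 9.46 FPKM followed. Clu and Bin1 could not be ordered at P2, since Clu was above Bin1 in 10 of 20 libraries. At P45 Apoe led with a median of 2340 FPKM, above App in all 16 libraries. App at 629 and Clu at 565 FPKM could not be ordered, with App above Clu in 8 of 16 libraries. Mapt had moved to the fourth place at 141 FPKM, and Sorl1, at 32.6, was above Psen2, at 16.2, in all 16 libraries. The order at P23 was the same as at P45, with App above Clu in 6 of 12 libraries and Bin1 above Picalm in 8 of 12.

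**Figure D1:**
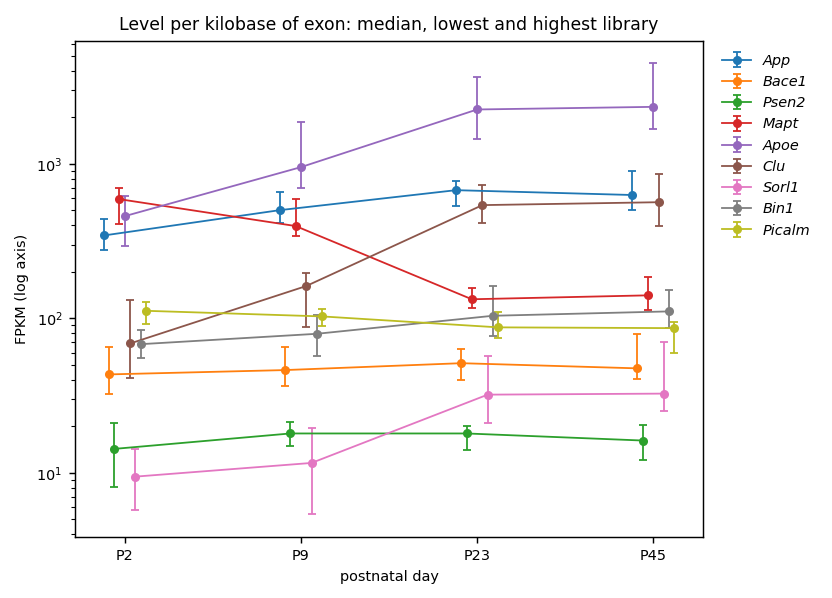
Level of the 9 genes in FPKM (log axis) at each age. Points are medians over all libraries of an age and bars reach from the lowest to the highest library. Apoe, Clu, and Sorl1 climb and Mapt drops between P9 and P23, while the medians of Bace1 stay between 43.4 and 51.3 FPKM.

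To ask how the genes changed as the cortex matured, P23/P45 was compared with P2/P9, with layers and regions weighted equally. Of the 9 genes 6 rose and 2 fell, and Psen2 did not pass the threshold. Of all genes tested 41% rose and 40.6% fell, 81.6% in all, so 8 of 9 is near the share of any gene and says little about these genes as a group. The same shares are the background for the counts of listed genes that rose or fell with age. The median log2 fold change (LFC) of the 9 genes was 0.54, against 0.01 over all genes. The LFCs of Clu, Mapt, Apoe, and Sorl1 exceeded in size those of 96%, 92.4%, 92.1%, and 92.1% of the genes tested.

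**Figure D2:**
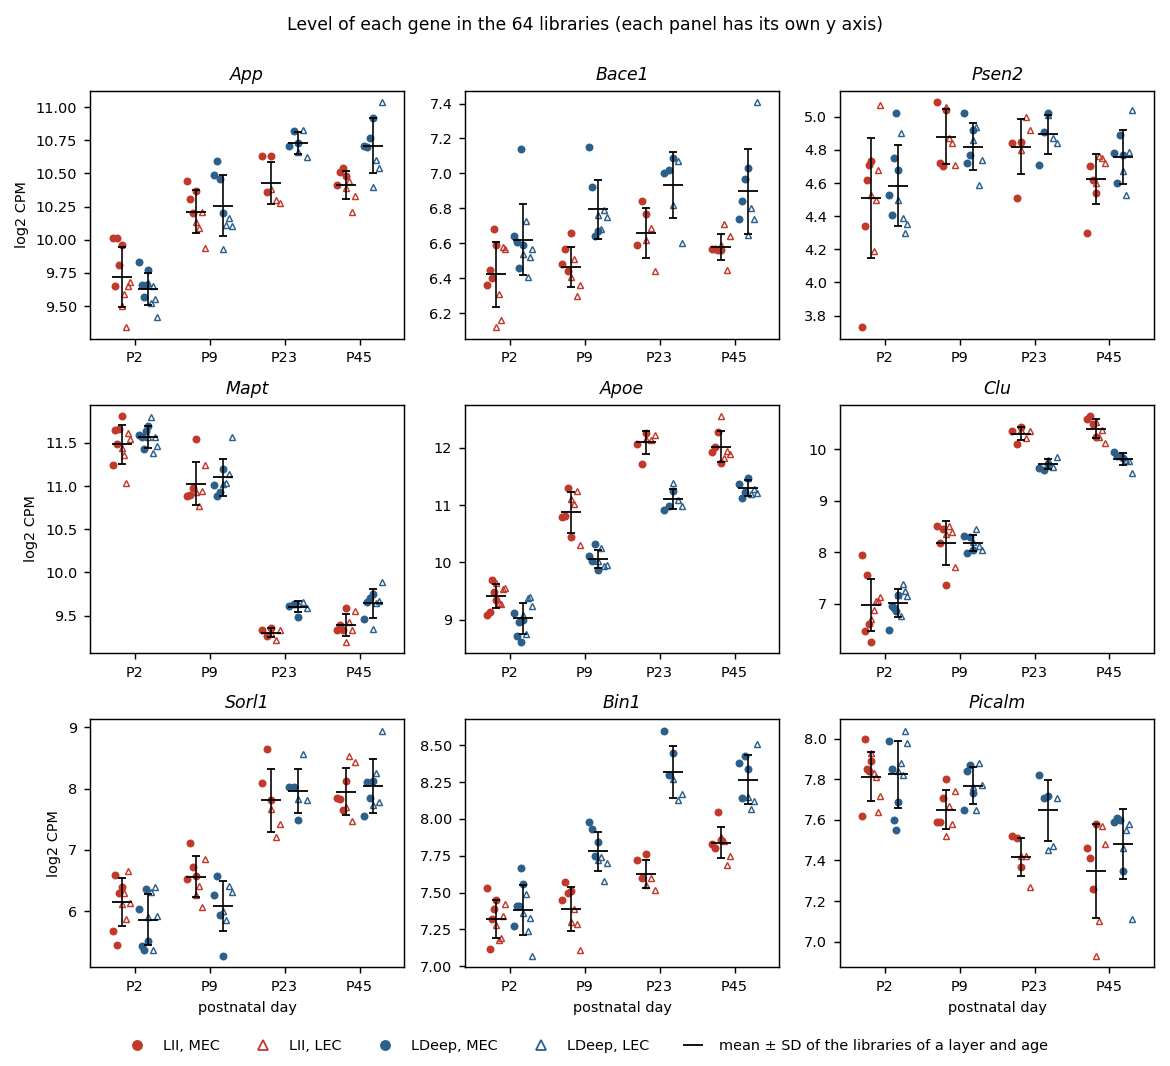
Level of each gene in the 64 libraries, as log2 CPM, by age, layer (color), and region (symbol). Black lines are means ± SD over the libraries of a layer and age. The 28 libraries of P23/P45 lie above all 36 libraries of P2/P9 for Clu and Sorl1 and below them for Mapt, and LII lies above LDeep for Apoe and Clu and below it for Bin1 at P23 and P45.

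Most of the change lay between P2 and P23. From P2 to P9, 8 genes passed the threshold (63.4% of all genes did), with Bace1 as the exception at LFC 0.10 ± 0.06 (standard error, SE). From P9 to P23 again 8 passed (64.6% of all genes), with Psen2 as the exception at an adjusted p of 0.966. The calls of Picalm from P2 to P9 and of Bace1 from P9 to P23 (LFC 0.17 ± 0.07) were lost in 12 and 9 of 31 alternatives, that of Picalm also without the 3 MEC libraries of P2 (adjusted p = 0.0587). From P23 to P45 none of the 9 passed in edgeR, DESeq2, or limma voom, where 3.85% of all genes passed, and 1 had an unadjusted p below 0.05. The 95% intervals of the 9 LFCs from P23 to P45 all lay between -0.33 and 0.41.

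**Figure D3:**
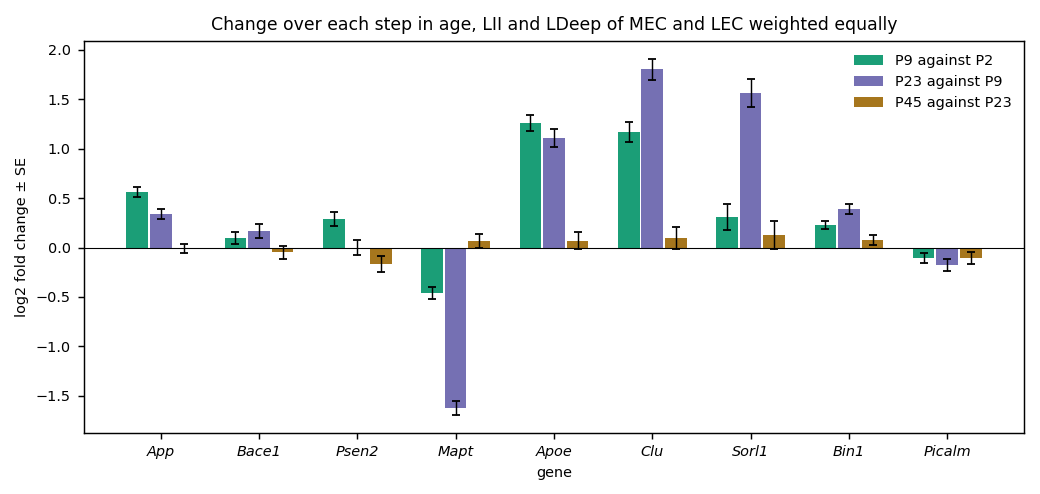
LFC ± SE of the 9 genes (x axis) over each step in age, with layers and regions weighted equally. Apoe and App have their larger step from P2 to P9, Mapt, Clu, and Sorl1 from P9 to P23, and the bars from P23 to P45 are close to 0.

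App (chr11:24425902-24641707, minus strand, rn6) rose with age by an LFC of 0.62 ± 0.03 (edgeR quasi-likelihood test, adjusted p = 5.15e-23). On the log2 CPM scale its lowest, median, and highest library were 9.34, 9.66, and 10.01 at P2 and 9.93, 10.20, and 10.59 at P9. At P23 they were 10.28, 10.63, and 10.83, and at P45 10.21, 10.52, and 11.04. The ages overlapped, with 14 of the 28 libraries of P23/P45 above every library of P2/P9. The rise from P2 to P9 was 0.56 ± 0.05 and that from P9 to P23 was 0.34 ± 0.05.

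The secretase genes of the set changed little. Bace1 (chr8:50140092-50162388, plus strand) had medians of 6.55, 6.65, 6.79, and 6.68 log2 CPM at P2, P9, P23, and P45. It rose by an LFC of 0.19 ± 0.04 (adjusted p = 0.000115), which is 1.14-fold, and 1 of the 28 libraries of P23/P45 was above every library of P2/P9. Psen2 (chr13:98514034-98530724, minus strand) ranged from 3.73 to 5.07 at P2 and from 4.30 to 5.04 at P45. Its LFC with age was 0.06 ± 0.06 (adjusted p = 0.276, 95% interval -0.04 to 0.17), although it rose by 0.29 ± 0.07 from P2 to P9 (adjusted p = 0.000599). Of 8 other secretase genes and gamma-secretase subunits tested, 4 rose with age and 2 fell, with a median LFC of 0.07 against 0.01 for all genes. Bace2, a protease related to BACE1, rose by 1.12 ± 0.13, and Psenen, a gamma-secretase subunit, by 0.52 ± 0.06. Aph1a, another subunit, fell by 0.39 on the log2 scale. The alpha-secretase gene Adam10 had an LFC of -0.04, which did not pass (adjusted p = 0.492). Among 9 genes of the APP family and its adaptors 5 rose and 2 fell. Itm2c and Itm2b, BRI family genes whose proteins bind APP, rose by 2.08 ± 0.05 and 0.90 ± 0.04, and Aplp2, a paralog of App, by 0.86 ± 0.04. All 4 amyloid-degrading enzymes passed, where 81.6% of all genes did, 41% upward and 40.6% downward. Mme (neprilysin) and Ide (insulin-degrading enzyme) fell, with LFCs of -0.77 ± 0.09 and -0.74 ± 0.04. Ece2 rose by 0.57 ± 0.07.

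Mapt (chr10:92289002-92386515, plus strand) fell with age by 1.82 on the log2 scale (SE 0.05, adjusted p = 1.58e-37), to 0.284 of its level at P2/P9. Its lowest, median, and highest library were 11.04, 11.57, and 11.81 log2 CPM at P2 and 10.77, 10.99, and 11.57 at P9. At P23 they were 9.22, 9.42, and 9.66, and at P45 9.20, 9.50, and 9.89. All 28 libraries of P23/P45 lay below all 36 of P2/P9, as for 3.82% of all genes. The LFC was -0.46 ± 0.06 from P2 to P9 and -1.62 ± 0.07 from P9 to P23. In the 4 libraries of P9 with replicate number 4, Mapt was the highest of its group, at 11.20 to 11.57, and without them the step from P2 to P9 was -0.60.

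All 6 immature neuron markers, among them Tubb3, fell together with Mapt, with a median LFC of -2.75. Their summed level went from 8900 to 15400 CPM at P2 to 1060 to 1710 CPM at P45, and their part in the change of Mapt was not tested. Of 7 other microtubule-associated protein genes 2 rose and 4 fell (median LFC -0.21). Map1b, the embryonic and early postnatal member, fell by 0.98 on the log2 scale, while Map1a, its later paralog, rose by 1.48 ± 0.12 and Map7 by 1.04 ± 0.07. Of 16 tau kinase and phosphatase genes 6 rose and 8 fell (median LFC -0.11), where 41% of all genes rose and 40.6% fell. Ppp3ca, a calcineurin subunit, rose by 0.91 ± 0.05 and Cdk5r2, an activator of the kinase CDK5, by 0.65 ± 0.14. Mark1, a kinase of microtubule-associated proteins, had an LFC of -0.74 ± 0.04, Gsk3b one of -0.19 (adjusted p = 0.0476), and Cdk5 one of -0.02 (adjusted p = 0.629).

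Apoe (chr1:80612894-80616820, minus strand) rose 3.43-fold with age (LFC 1.78 ± 0.06, adjusted p = 8.35e-33). Its lowest, median, and highest library were 8.62, 9.26, and 9.70 log2 CPM at P2 and 9.86, 10.32, and 11.30 at P9. At P23 they were 10.92, 11.54, and 12.26, and at P45 11.13, 11.61, and 12.55. Every library of P9 was above every library of P2, in a step that 63.4% of all genes passed. The share of all genes with such a gap was not counted, so whether it is unusual is not known. The wide ranges from P9 on hold the difference between layers described further on. The steps were 1.26 ± 0.08 from P2 to P9 and 1.11 ± 0.09 from P9 to P23.

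Clu (chr15:42626612-42665848, plus strand) had the largest change of the 9 genes, a 5.42-fold rise (LFC 2.44 ± 0.08, adjusted p = 2.01e-34). Its lowest, median, and highest library were 6.26, 7.0, and 7.94 log2 CPM at P2 and 7.35, 8.24, and 8.51 at P9. At P23 they were 9.59, 9.97, and 10.42, and at P45 9.54, 10.03, and 10.64. All 28 libraries of P23/P45 were above all 36 of P2/P9, as were those of 3.6% of all genes, Sorl1 among them. The lowest value at P9 was that of LII in the MEC with replicate number 4.

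Astrocyte markers rose with age as well. Of 10 markers 9 rose and 1 fell, with a median LFC of 1.39, and their summed level went from 898 to 2470 CPM at P2 to 3880 to 6710 CPM at P45, with Slc1a3, Aldoc, and Gfap the most abundant. Their part in the rise of Apoe and Clu was not tested. The 3 genes whose log2 CPM followed Clu most closely over the 64 libraries were S100b (Pearson r = 0.987), Ndrg2 (0.981), and Chi3l1 (0.977), and those for Apoe were Ivd (0.975), Glul (0.971), and Ppap2b (0.967). The libraries share their age groups, so such correlations are high for many genes. Of 10 genes of lipoprotein receptors and lipid transport 5 rose and 4 fell (median LFC 0.46). Apod, another apolipoprotein, rose by 3.61 ± 0.14, Lcat, which esterifies cholesterol in lipoproteins, by 1.81 ± 0.12, and Pltp, a phospholipid transfer protein, by 1.23 ± 0.08.

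**Figure D4:**
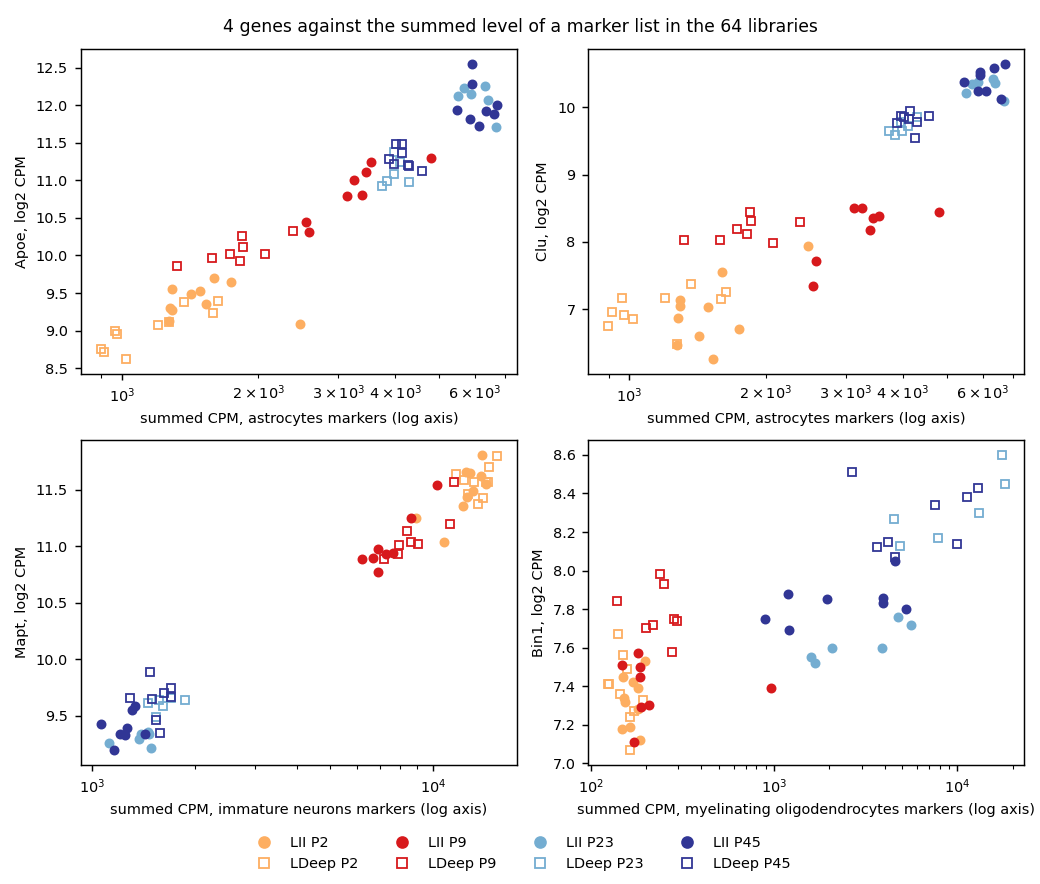
Level of Apoe, Clu, Mapt, and Bin1 (log2 CPM) against the summed CPM (log axis) of the astrocyte, immature neuron, or oligodendrocyte markers in each of the 64 libraries, with color for age and filled circles for LII. Apoe and Clu are high where astrocyte markers are high and Mapt is high where immature neuron markers are high. Bin1 differs between LII and LDeep of P9. Oligodendrocyte marker levels at P9 are 139 to 293 CPM, apart from 1 LII library at 962 CPM. The part of these cell types in the levels was not tested.

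Sorl1 (chr8:46228077-46287172, minus strand) rose 3.44-fold with age (LFC 1.78 ± 0.10, adjusted p = 1.26e-23). Its lowest, median, and highest library were 5.36, 6.07, and 6.66 log2 CPM at P2 and 5.27, 6.37, and 7.11 at P9. At P23 they were 7.21, 7.83, and 8.65, and at P45 7.48, 7.85, and 8.95. The LFC from P9 to P23 was 1.56 ± 0.14. The step from P2 to P9 was 0.31 ± 0.13 (adjusted p = 0.0316) and did not pass in 10 of 31 alternatives, among them the one without the 3 MEC libraries of P2 (0.26, adjusted p = 0.0779). Of 8 other genes of the same receptor family (VPS10 receptors) and the retromer, which sorts cargo from endosomes, 4 rose and 1 fell. Sort1 (sortilin) rose by 1.37 ± 0.06, and the retromer subunits Vps29 and Vps26a by 0.38 ± 0.06 and 0.24 ± 0.05. Vps35 had an LFC of -0.04 (adjusted p = 0.382). Sorl1 was most like Atf6 (r = 0.951), Kcnma1 (0.949), and Usp31 (0.948) over the libraries.

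The genes of endocytosis moved in opposite directions. Bin1 (chr18:25163648-25222136, plus strand) rose by an LFC of 0.54 ± 0.03 (adjusted p = 1.08e-21). Its lowest, median, and highest library were 7.07, 7.35, and 7.67 log2 CPM at P2 and 7.69, 8.06, and 8.51 at P45. Picalm (chr1:154377505-154457191, plus strand) fell by 0.29 on the log2 scale (SE 0.04, adjusted p = 1.22e-09), from 7.55, 7.84, and 8.04 at P2 to 6.93, 7.47, and 7.61 at P45. The ages overlapped for both genes, with 15 of 28 later libraries above all earlier ones for Bin1 and 16 of 28 below them for Picalm. Of 15 other endocytosis genes 9 rose and 2 fell (median LFC 0.24). Dnm1 (dynamin 1) rose by 1.85 ± 0.07, Ptk2b by 1.42 ± 0.12, and Synj1 (synaptojanin 1) by 1.09 ± 0.08. Of 8 microglial risk genes tested 7 rose (4 to 7 over the alternatives) and none fell (median LFC 1.02), with Inpp5d at 1.58 ± 0.08, Abi3 at 1.20 ± 0.10, and Trem2 at 0.98. Of 10 microglia markers 9 rose as well.

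LII was compared with LDeep with ages and regions weighted equally, to ask whether the layer that degenerates early differs in these genes. Of the 9 genes 2 were higher in LII, Apoe and Clu, and 5 were lower, Bin1, Bace1, Mapt, App, and Picalm, where 23.5% of all genes were higher, 30.5% lower, and 54% differed in all. The median LFC was -0.12, against -0.05 for all genes. The same shares are the background for the layer counts of listed genes. Psen2 (LFC -0.05 ± 0.06, adjusted p = 0.482) and Sorl1 (0.12 ± 0.10, adjusted p = 0.288) did not pass. Apoe was 1.67-fold higher (LFC 0.74 ± 0.06, adjusted p = 2.54e-15) and Bin1 was 0.761 of its LDeep level (-0.39 ± 0.03, adjusted p = 5.82e-15). The other differences were smaller, at 0.32 ± 0.07 for Clu, -0.29 ± 0.04 for Bace1, -0.17 ± 0.05 for Mapt, -0.14 ± 0.03 for App, and -0.12 ± 0.04 for Picalm. With the 3 MEC libraries of P2 left out the same 7 genes passed, at 0.75 for Apoe, 0.23 for Clu, -0.39 for Bin1, -0.27 for Bace1, -0.15 for Mapt, -0.13 for App, and -0.09 for Picalm. The study normalized its RNA-seq counts by limma voom with TMM and quantile normalization. With voom and quantile normalization App (LFC -0.04), Mapt (-0.05), and Picalm (-0.01) did not pass and Sorl1 did (0.23). The calls of App, Mapt, and Picalm were also lost in the MEC alone. That of App was also lost without P23 replicate 2 (-0.08), and that of Picalm with at least 10 counts required in every sample (-0.08) and in the LEC alone (-0.13).

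The layers were also compared at each age. At P2 only Apoe passed (19.2% of all genes did), at P9 3 genes (33%), at P23 7 (25.9%), and at P45 6 (26.4%). Each layer was represented by 10, 8, 6, and 8 libraries at these ages. The count at P23 was 3 without replicate 1 or replicate 2 of that age and 4 without replicate 3. Without the 3 MEC libraries of P2 the LFC at P2 was 0.08 for App, -0.01 for Mapt, 0.01 for Psen2, -0.16 for Bace1, 0.47 for Sorl1, -0.09 for Bin1, and 0.06 for Picalm, none of which passed.

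**Figure D5:**
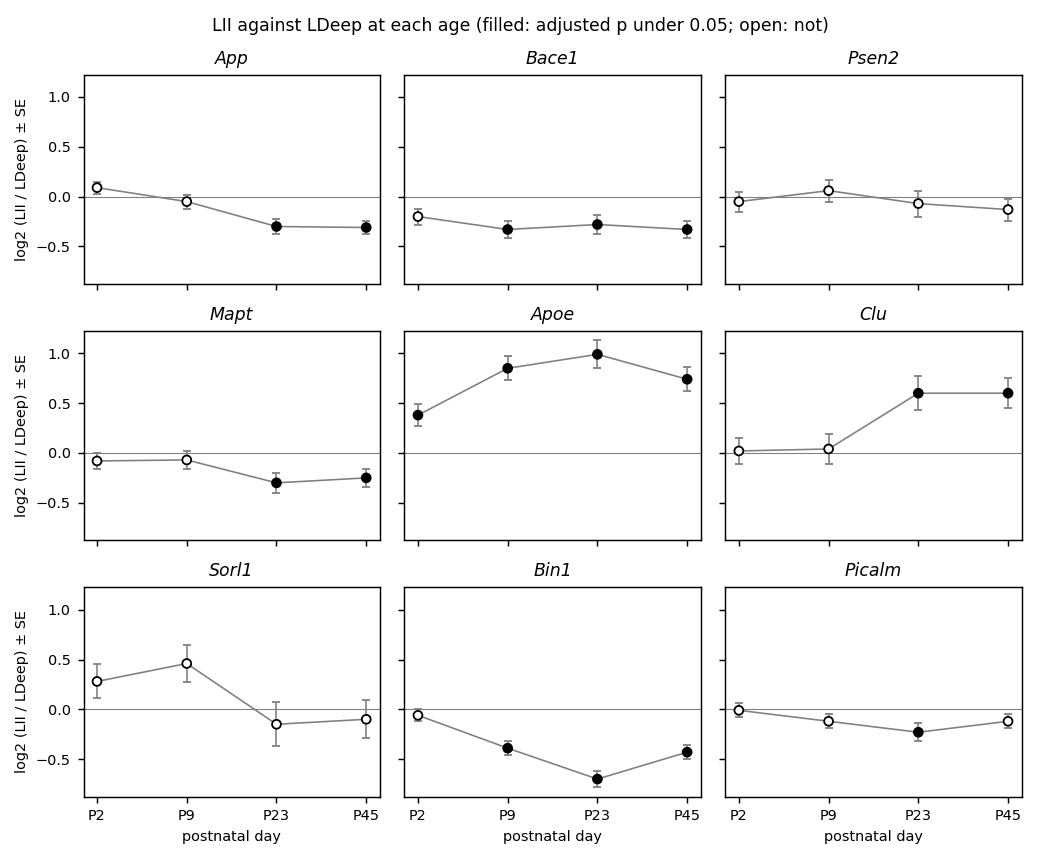
LFC of LII against LDeep ± SE at each age, with MEC and LEC weighted equally. Filled points have an adjusted p below 0.05. The difference of Apoe is positive at all 4 ages, that of Clu is near 0 until P9 and 0.60 at P23 and P45, and those of App and Bin1 start near 0 and are negative at P23 and P45.

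For Apoe the lowest, median, and highest LII library were 9.09, 9.42, and 9.70 log2 CPM at P2, against 8.62, 9.04, and 9.40 in LDeep. At P9 they were 10.31, 10.91, and 11.30 against 9.86, 10.02, and 10.33. At P23 they were 11.71, 12.14, and 12.26 against 10.92, 11.04, and 11.38, and at P45 11.73, 11.94, and 12.55 against 11.13, 11.25, and 11.48. The layers did not overlap at P23 and P45, where all LII libraries lay above all LDeep libraries for 9.66% and 4.2% of all genes. The LFCs at the 4 ages were 0.38 ± 0.11, 0.85 ± 0.12, 0.99 ± 0.14, and 0.74 ± 0.12, with adjusted p = 0.00792, 1.63e-07, 1.59e-07, and 2.22e-06. Without the 3 MEC libraries of P2 the first was 0.40 (adjusted p = 0.00649). The call at P2 was lost in the MEC alone (0.48, adjusted p = 0.0571) and in the LEC alone (0.32, adjusted p = 0.173). The layer difference at P23/P45 minus that at P2/P9 was 0.25 ± 0.12 and did not pass (adjusted p = 0.213). Without the 3 MEC libraries of P2 it was 0.24 (adjusted p = 0.193).

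Clu passed the threshold between layers at P23 and P45. At P9 LII held 7.35, 8.36, and 8.51 log2 CPM (lowest, median, highest) and LDeep 7.99, 8.16, and 8.45. At P23 LII held 10.09, 10.36, and 10.42 against 9.59, 9.68, and 9.85, and at P45 10.12, 10.43, and 10.64 against 9.54, 9.84, and 9.95. All LII libraries lay above all LDeep libraries at both ages, as for 9.66% and 4.2% of all genes. The LFC was 0.04 ± 0.15 at P9, 0.60 ± 0.17 at P23 (adjusted p = 0.00572), and 0.60 ± 0.15 at P45 (adjusted p = 0.00125). The call at P23 was lost without replicate 1 (0.53) or replicate 3 of that age. In the MEC alone the calls at P23 (0.65, adjusted p = 0.156) and P45 (0.62, adjusted p = 0.123) were lost. The layer difference at P23/P45 exceeded that at P2/P9 by 0.57 ± 0.15 (adjusted p = 0.00843), a test that 8.8% of all genes passed, 4.83% with a higher and 3.97% with a lower difference at the later ages. It did not pass in the MEC alone (0.51, adjusted p = 0.345) or without P23 replicate 1 (0.50, adjusted p = 0.0546). At P2 the LFC was 0.02 ± 0.13, and it rested on the libraries that stood apart. In the MEC the 5 LII libraries of P2 held 7.94, 6.47, 7.56, 6.6, and 6.26 log2 CPM, in the order of their replicate numbers, and replicates 1 and 3 are among the 3 libraries named above. The 5 LDeep libraries held 6.49, 6.96, 6.92, 6.85, and 7.17, of which replicate 1 is another of these 3. Without the 3 libraries Clu was lower in LII than in LDeep at P2 (LFC -0.35, adjusted p = 0.0112), and the later layer difference exceeded the earlier one by 0.76 (adjusted p = 1.12e-06).

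Markers of several cell types moved with the layers. Of 10 astrocyte markers 9 were higher in LII (median LFC 0.80), with a median summed level at P23 of 6090 CPM in LII and 3980 CPM in LDeep. Of 12 meningeal fibroblast markers 11 were higher in LII (median LFC 3.84) and 1, Dcn, was lower (-0.48). All 8 endothelial, all 7 mural cell, and 7 of 10 microglia markers were higher in LII as well. Of the choroid plexus markers 2 were tested and both were higher in LII, at summed levels of at most 46 CPM. The summed meningeal fibroblast level outside MEC P2 was 309 to 1910 CPM in LII and 33.7 to 402 CPM in LDeep, with Igf2, Col3a1, and Col1a1 the most abundant. At P2 Apoe was 9.09 in the LII library with 32.1 CPM of meningeal markers and 9.70 in that with 50.6 CPM. These are the lowest and the highest LII value of that age. Both are MEC libraries whose marker levels go in part against their layer labels. The part of any of these cell types in the layer differences of Apoe and Clu was not tested.

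Of 10 genes of lipoprotein receptors and lipid transport 4 were higher in LII and none lower (median LFC 0.09), and over the alternatives 2 to 5 were higher and up to 1 was lower. Those that passed include Lcat at 2.42 ± 0.12, Pltp at 0.97 ± 0.08, and Abca1, which loads lipid onto apolipoprotein E, at 0.66 (adjusted p = 3.13e-11). Of 8 microglial risk genes 3 were higher (0 to 3 over the alternatives) and 1 was lower, with Plcg2 at 0.39 ± 0.10 and Inpp5d at -0.46 ± 0.08. For both lists the shares of all genes were 23.5% higher and 30.5% lower.

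Bin1 showed the opposite layer difference to Apoe. At P2 its lowest, median, and highest library were 7.12, 7.33, and 7.53 log2 CPM in LII and 7.07, 7.38, and 7.67 in LDeep. At P9 they were 7.11, 7.42, and 7.57 against 7.58, 7.74, and 7.98, at P23 7.52, 7.60, and 7.76 against 8.13, 8.29, and 8.60, and at P45 7.69, 7.84, and 8.05 against 8.07, 8.24, and 8.51. From P9 on every LII library lay below every LDeep library, as for 2.32%, 5.1%, and 1.69% of all genes at P9, P23, and P45. The LFC was -0.06 ± 0.06 at P2 (adjusted p = 0.517), -0.39 ± 0.07 at P9, -0.70 ± 0.08 at P23, and -0.43 ± 0.07 at P45. Between P2/P9 and P23/P45 the layer difference moved by -0.34 ± 0.07 (adjusted p = 0.000244), and by -0.32 without the 3 MEC libraries of P2 (adjusted p = 0.000356).

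Of 10 markers of myelinating oligodendrocytes all rose with age, 5 were lower in LII, and 1 was higher. Their summed level, with Mbp and Cnp among the most abundant, was 148 to 962 CPM in LII and 139 to 293 CPM in LDeep at P9, and 1590 to 5550 CPM against 4510 to 18100 CPM at P23. Of 6 oligodendrocyte precursor markers 4 were lower in LII and 1 was higher, and with age 2 rose and 2 fell. At P9 the median oligodendrocyte level was 185 CPM in LII and 245 CPM in LDeep, and the layers did not overlap for Bin1. Without the LII library of the LEC that held 962 CPM, no result on the 9 genes changed its call. The part of oligodendrocytes in the layer difference of Bin1 was not tested.

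Apoe and Bin1 had the largest layer differences of the 9 genes, in opposite directions, and the sequences before a start of each are shown for that reason. They are the 250 bases upstream of a RefSeq transcript start on the GRCr8 build, chr1:88484700-88484949 on the minus strand for Apoe (the second of 3 starts listed) and chr18:24283701-24283950 on the plus strand for Bin1. The capitals mark the GC box GGGCGG on either strand (CCGCCC on the other), a motif bound by Sp1-type factors.
Apoe start 2: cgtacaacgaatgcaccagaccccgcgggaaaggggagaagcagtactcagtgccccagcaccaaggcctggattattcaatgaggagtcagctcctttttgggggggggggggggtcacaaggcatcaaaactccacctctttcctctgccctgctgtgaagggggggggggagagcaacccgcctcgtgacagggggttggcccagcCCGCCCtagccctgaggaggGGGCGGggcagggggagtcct
Bin1 start 1: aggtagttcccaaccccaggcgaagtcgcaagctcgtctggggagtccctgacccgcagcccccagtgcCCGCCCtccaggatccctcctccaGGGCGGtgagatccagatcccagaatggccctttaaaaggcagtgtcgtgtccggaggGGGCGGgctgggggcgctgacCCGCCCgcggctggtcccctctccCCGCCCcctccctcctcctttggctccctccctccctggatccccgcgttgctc
The Apoe window held 2 GC boxes and was 64.4% GC, and the Bin1 window held 5 and was 69.6% GC. At least 1 GC box was found in 30.5% of 33469 windows of this length, whose median was 51.2% GC. Of the 3 Apoe windows the second is shown because it holds the motif. That of start 1 held no GC box and was 51.6% GC, and that of start 3, which overlaps the one shown, held 2. Windows were listed for 7 of the 9 genes. Those of App and Picalm held 1 GC box each, and those of Psen2, Bace1, and Sorl1 held none. TATAAA (or TTTATA), found in 12.9% of all windows, was not in those of the 7 genes. The CCAAT box (CCAAT or ATTGG), found in 34% of all windows, was in that of Bace1 and in 1 of the Apoe windows that is not shown. These matches describe letters in a window and were not set against the layer or age differences.

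App was 10.28 to 10.63 log2 CPM in LII and 10.62 to 10.83 in LDeep at P23, with medians of 10.37 and 10.72, so that 4 of 6 LII libraries lay below every LDeep library. At P45 the LII libraries held 10.21 to 10.54 (median 10.42) and the LDeep libraries 10.40 to 11.04 (median 10.70). The LFC was 0.09 ± 0.06 at P2, -0.05 ± 0.07 at P9, -0.30 ± 0.08 at P23 (adjusted p = 0.00317), and -0.31 ± 0.07 at P45 (adjusted p = 0.000477). The call at P23 was lost in the MEC alone (-0.21) and without replicate 2 of that age (-0.17), and that at P45 with quantile normalization (-0.16, adjusted p = 0.0704). From P2/P9 to P23/P45 the layer difference moved by -0.33 ± 0.07 (adjusted p = 0.000936), and by -0.32 without the 3 MEC libraries of P2 (adjusted p = 0.00117). In the MEC alone this change was -0.30 and did not pass (adjusted p = 0.0894).

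Bace1 was lower in LII at P9 (LFC -0.33 ± 0.09), P23 (-0.28 ± 0.10), and P45 (-0.33 ± 0.09), and its value at P2 was -0.20 ± 0.08 (adjusted p = 0.0659). The calls at P9, P23, and P45 were lost in 3, 7, and 2 of 30 alternatives, each time in the MEC alone and the LEC alone among them. Its LII libraries ranged from 6.30 to 6.66 log2 CPM at P9 and its LDeep libraries from 6.64 to 7.15, and 7 of 8 LII libraries lay below every LDeep library. Its layer difference moved by -0.04 ± 0.09 between the earlier and later ages (adjusted p = 0.873), and by -0.06 without the 3 MEC libraries of P2. With the replicate number as a block the value at P2 passed (-0.20, adjusted p = 0.0273). Psen2 did not pass at any age, with LFCs from -0.13 to 0.06. Of the 8 other secretase genes 5 were higher in LII and none was lower, where 23.5% of all genes were higher and 30.5% lower. Bace2 was at 0.80 ± 0.13 and the sheddase gene Adam17 at 0.37 ± 0.05. Among the amyloid-degrading enzymes 3 of 4 were higher in LII, with Mme at 1.02 ± 0.09 and Ece1 at 0.42 ± 0.06. Of the 9 APP family and adaptor genes 2 were higher (1 to 4 over the alternatives) and 5 were lower (2 to 5), with Apbb1, an adaptor of the APP tail, at -0.31 ± 0.04 and Aplp1 at -0.24 ± 0.05.

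Mapt at P23 was 9.22 to 9.36 log2 CPM in LII (median 9.32) and 9.49 to 9.66 in LDeep (median 9.62). All LII libraries lay below all LDeep libraries, as for 5.1% of all genes. The LFC was -0.30 ± 0.10 (adjusted p = 0.0279) at P23 and -0.25 ± 0.09 (adjusted p = 0.0353) at P45. At P2 and P9 it was -0.08 ± 0.08 and -0.07 ± 0.09, which did not pass. The calls at P23 and P45 were lost in 6 and 10 of 30 alternatives. The layer difference moved by -0.20 ± 0.09 with age (adjusted p = 0.191), by -0.23 without the 3 MEC libraries of P2 (adjusted p = 0.0869), and by -0.19 with the replicate number as a block, where it passed (adjusted p = 0.0283). Of 16 tau kinase and phosphatase genes 6 were lower in LII (3 to 10 over the alternatives) and none was higher (up to 1). Of all genes 30.5% were lower and 23.5% higher. Mark1 was at -0.30 ± 0.04 and Ppp2ca, at a mean of 1.67 CPM, at -0.41 ± 0.15. Of the other microtubule-associated proteins 1 was higher and 2 were lower, Map6 at -0.30 ± 0.06 and Map2 at -0.20 ± 0.06. Of 6 immature neuron markers 5 were lower in LII.

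Picalm passed at P23 only (LFC -0.23 ± 0.09, adjusted p = 0.04), where its LII libraries held 7.27 to 7.52 log2 CPM and its LDeep libraries 7.45 to 7.82. This call was lost in 13 of 30 alternatives, among them the replicate block (adjusted p = 0.0504). At P45 the LFC was -0.12 ± 0.07, and without P45 replicate 4 it was -0.31 and passed (adjusted p = 0.00272). For Sorl1 the LFC was 0.46 ± 0.19 at P9 (adjusted p = 0.0576) and -0.15 ± 0.22 at P23, and the layer difference moved by -0.50 ± 0.19 with age (adjusted p = 0.101), none of which passed. The value at P9 passed in 11 of 30 alternatives, among them DESeq2 (0.49, adjusted p = 0.0399), quantile normalization (0.56, adjusted p = 0.0147), the replicate block (0.46, adjusted p = 0.0164), and without the 3 MEC libraries of P2 (0.48, adjusted p = 0.0395). The change with age passed in 3 of 30, with the replicate block (-0.49, adjusted p = 0.0301), without MEC LII P2 replicate 3 (-0.59, adjusted p = 0.0388), and without the 3 MEC libraries (-0.59, adjusted p = 0.0292). Of the 15 other endocytosis genes 10 were lower in LII and 3 were higher (median LFC -0.15), with Rin3 at 1.12 ± 0.11 and Fermt2 at 0.33 ± 0.03. The number of lower genes ranged from 3 to 10 over the alternatives. Of the VPS10 receptor and retromer genes 4 were lower (2 to 4 over the alternatives), Sort1 at -0.26 ± 0.06 among them, and Sorcs3 was higher at 0.21 ± 0.06. For both lists the shares of all genes were 30.5% lower and 23.5% higher.

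In the neuron markers, all 4 of layer II were higher in LII and all 6 of the deep layers were lower (median LFC 0.76 and -1.54). Of 7 excitatory neuron markers 2 were higher in LII and 4 were lower, and of 6 inhibitory markers 1 was higher and 1 lower. With age 4 excitatory markers rose and 2 fell, and 4 inhibitory markers rose and 1 fell. Of the layer II markers 3 rose with age and none fell, and of the deep layer markers 2 fell and none rose. Among the other markers, 5 of 8 endothelial rose and 1 fell, 4 of 7 mural cell rose and 2 fell, and 2 of 12 meningeal fibroblast markers and 1 of 2 choroid plexus markers rose. Over the alternatives the number higher in LII ranged from 3 to 11 for meningeal fibroblast, 3 to 8 for microglia, and 2 to 4 for layer II markers, and the number of oligodendrocyte markers that rose with age from 5 to 10.

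The layer differences were also taken within each region. Apoe was higher in LII by 0.73 ± 0.09 in the MEC and 0.75 ± 0.09 in the LEC, and Bin1 was lower by -0.42 ± 0.05 and -0.37 ± 0.05, and Bace1 by -0.29 ± 0.06 and -0.28 ± 0.06. In the MEC 5 of 9 genes passed (40.8% of all genes) and in the LEC 6 (38.6%). Clu and Sorl1 passed in the MEC (0.38 ± 0.11 and 0.33 ± 0.14) but not in the LEC, where Clu was at 0.25 ± 0.11 (adjusted p = 0.0527) and passed in 14 of 29 alternatives. App, Mapt, and Picalm passed in the LEC but not in the MEC (-0.17 ± 0.05, -0.24 ± 0.07, and -0.15 ± 0.05). None of these differences between regions was shown, since the test of the layer difference in the MEC against that in the LEC passed for none of the 9 genes in edgeR, DESeq2, or limma voom, with 1 unadjusted p below 0.05, that of Sorl1 (0.42 ± 0.19, adjusted p = 0.364). Of all genes 1.25% passed it. Without the 3 MEC libraries of P2, the layer differences in the MEC were 0.74 for Apoe, -0.43 for Bin1, and -0.27 for Bace1, that of Clu was 0.20 (adjusted p = 0.0395) and that of Sorl1 0.43 (adjusted p = 0.00911), and that of Clu in the LEC was 0.27 and passed (adjusted p = 0.00368). The call of Sorl1 in the MEC was lost in 12 of 29 alternatives and that of Picalm in the LEC in 18 of 29.

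Between regions 2 of the 9 genes differed, App and Bin1, both higher in the MEC, where 8.87% of all genes were higher and 15.4% differed in all. App was higher by 0.20 ± 0.03 (adjusted p = 1.61e-05) and Bin1 by 0.16 ± 0.03 (adjusted p = 0.000304). At P9 App was 10.20 to 10.59 log2 CPM in the 8 MEC libraries (median 10.41) and 9.93 to 10.21 in the 8 LEC libraries (median 10.11). At P45 the MEC libraries held 10.41 to 10.92 (median 10.62) and the LEC libraries 10.21 to 11.04 (median 10.42), so that the regions overlapped. Bin1 was 7.45 to 7.98 in the MEC and 7.11 to 7.74 in the LEC at P9. For the other 7 genes the LFCs were between -0.10 and 0.10. In LII alone App (0.24 ± 0.05) and Bin1 (0.14 ± 0.05, adjusted p = 0.0433) passed (12.6% of all genes), and in LDeep alone App (0.17 ± 0.05, adjusted p = 0.0296) and Bin1 (0.18 ± 0.05) passed (5.78%). The call of Bin1 in LII was lost without the 3 MEC libraries of P2 (0.12, adjusted p = 0.0864). The region difference did not change with age for any of the 9 genes by this test (4.38% of all genes passed), in edgeR, DESeq2, or limma voom, and none had an unadjusted p below 0.05. Of 10 markers of myelinating oligodendrocytes 5 were higher in the MEC and none was lower, and their part in the region difference of Bin1 was not tested.

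The remaining likenesses over the 64 libraries are given as description only. Mapt was most like Kiaa0895l (r = 0.99), Tubb3 (0.99), and Crmp1 (0.989). App was most like Atp2a2 (0.945), Syngr1 (0.935), and Nkiras1 (0.934), and Picalm most like Abce1 (0.922), Zfp955a (0.902), and Exoc5 (0.897). Bin1 was most like Efhd2 (0.905), Galnt9 (0.90), and RGD1561849 (0.897), and Bace1 most like Fam160a2 (0.845), Ppfia3 (0.837), and Aatk (0.829). Psen2 reached 0.682 with Stx1a, 0.67 with Fxyd7, and 0.651 with RGD1564053.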

How the data were processed

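RNA was purified from microdissected tissue of slices, and stranded libraries of ribosome-depleted total RNA were sequenced as read pairs. The authors used Trimmomatic 0.33 for trimming, STAR 2.4.0 for mapping to rn6, and featureCounts 1.4.6-p1 for strand-specific counting of pairs over RefSeq exons. A pair over more than 1 gene counted toward all of them. The deposited files hold unnormalized counts per gene. None of the 9 genes shares exon bases with another gene of the annotation.

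Counts were analyzed in R 4.3.3 with edgeR 4.0.16 (quasi-likelihood test, TMM, filterByExpr, 16 group means, all 64 libraries, no block). P-values were adjusted by Benjamini-Hochberg over 12521 genes, with a threshold of 0.05. SE is the LFC divided by the square root of F. Log2 CPM values were computed with prior count 2. Pathway (9) and marker (13) lists were defined by symbol. From each pathway list the 3 genes with the largest LFC with age and the 2 with the largest between layers were named, at a mean of at least 1 CPM. Of the listed genes, Adam10, Gsk3b, Cdk5, Vps35, Abca1, and Trem2 were named after their values were seen. Some listed genes are not reported here by name. The 9 genes, lists, and tests were chosen with earlier results of these data known. Alternatives were RLE size factors, DESeq2 1.42.0, voom (limma 3.58.1) after quantile normalization, no filter, at least 10 counts in every sample, the replicate number as a block, 1 region only, and replicates left out. Leaving out single libraries that stood apart was chosen after seeing the data. The fits were tested on simulated counts. The 2 promoter sequences come from RefSeq on GRCr8. Windows of 7 genes were matched by symbol. The smallest chi-square per degree of freedom between replicates was 3.08, so none were duplicates.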

Additional observations from a re-analysis of the deposited data

Results flagged for a closer look

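In groups of 4 or 5 libraries, 4 single values stood far from the rest of their group, out of 108 combinations of gene and group, and chance alone flags about 5% of such groups. Mapt was 11.54 log2 CPM in MEC LII P9 replicate 4, against 10.89 to 10.98 in the other 3 libraries. Bace1 was 7.14 in MEC LDeep P2 replicate 4, against 6.46 to 6.64. Apoe was 12.55 in LEC LII P45 replicate 1, against 11.82 to 11.94, and Picalm was 7.35 in MEC LDeep P45 replicate 4, against 7.59 to 7.61.

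For 3 genes the layer difference at P23/P45 differed from that at P2/P9 by the test of the difference itself (edgeR, adjusted p below the threshold). It was lower by an LFC of -0.33 for App, higher by 0.57 for Clu, and lower by -0.34 for Bin1.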

How the results depend on the processing

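The number of genes that passed with age was 8 in all 31 alternatives, and that between layers 5 to 7 in 30. The count between layers at P2 was 2 with limma voom and quantile normalization and without the 3 MEC libraries that stood apart, and 0 in only MEC or only LEC. At P23 it was 4 with voom and quantile normalization, 4 with at least 10 counts in every sample, 2 in only MEC, 4 in only LEC, and 3 to 7 when each replicate was left out, where the lowest values came without P23 replicate 1 or 2. At P45 it was 3 in only MEC. Between regions in LII it was 1 with RLE size factors, voom, no filter, at least 10 counts, or without the 3 MEC libraries, and 1 to 2 with each replicate left out. In LDeep it was 1 to 2 with each replicate left out. The test of layer difference by age passed for 1 gene in only MEC. The layer difference of Clu at P2 reversed to -0.35 without the 3 MEC libraries. Over all genes, the strict filter gave 4353 calls between layers against 6767, and 1232 against 2409 at P2, with fewer genes tested. The cause of the other shifts was not tested beyond the smaller number of samples.

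With the replicate number as a block, 2 genes passed between layers at P2 and 5 in the test of layer difference by age, and counts of the other comparisons were within 1.5 times. In comparisons of layers and regions, single calls gained were Bace1 at P2, Sorl1 at P9, Mapt in the MEC, and Clu in the LEC. Mapt and Sorl1 were also gained in layer by age, and 1 call was lost, Picalm at P23. The study numbered its miRNA samples by animal, but neither it nor the labels say so of these libraries, so the numbers were not taken as pairs. The main test thus counts all 64 libraries as independent, and its p-values for age are too small if a number is 1 animal. Deviations of libraries that share a number correlated by -0.259 to 0.554 (mean 0.134 over 96 pairs, -0.043 for different numbers). Of 64 libraries 42 correlated best with their own number, and how many would without pairing was not counted. For comparisons of ages the block was a random effect of limma or a sum over libraries. With the random effect the calls of Sorl1 (adjusted p = 0.0515) and Picalm (0.116) from P2 to P9 were lost. That of Bace1 from P9 to P23 was lost too (0.0562). With the sums in edgeR those of Sorl1 (0.169) and Bace1 (0.0967) were lost in the same steps.

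Psen2 had the lowest counts of the 9 genes, 81 to 323 per library.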
